A study of Mus musculus with 17 samples.

Results

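Translation factors are the proteins that bring ribosomes, messenger RNA and charged transfer RNA together and then release the finished protein. The genes described here encode initiation factors (eIF), elongation factors (eEF) and release factors (eRF), together with a few proteins that bind or modify them. They were chosen by name, as every entry of the count table whose symbol begins with Eif1 to Eif6, Eef1, Eef2 or Eefsec or is Etf1, Gspt1 or Gspt2, leaving out the eIF2 alpha kinases (names in Eif2ak), and no measured value was used. This gave 74 of the 23719 entries. After the filter on low counts, 66 of the 74 were tested among 14146 genes in all.

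The libraries come from colon tissue of C57BL/6 males, 32 to 34 weeks old, with 9 mice in the Control group, which drank water, and 8 in the GWI group. The GWI group models Gulf War illness. These mice took pyridostigmine bromide, a reversible inhibitor of acetylcholinesterase, in their drinking water at 2 mg/kg for 7 days, recovered for 21 days and were kept to day 30. The question for this comparison is what remains changed in the colon after recovery from the exposure. The labels number the libraries as tissue replicates without saying that each came from a separate mouse, which is assumed here, and p-values measure only the spread between these samples, which may be technical where that does not hold. Some column labels in each group share a first part. Its meaning is not given in the sources used here, and this grouping was not tested. The total count per mouse was 16744096 to 20741212 in the Control group and 16293537 to 18389686 in the GWI group.

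In eukaryotic cells, eIF2 carries the initiator transfer RNA to the small ribosomal subunit with the help of eIF1, eIF1A, eIF3 and eIF5, while eIF4E, eIF4G and eIF4A bind the capped end of the messenger RNA and unwind it. The eIF4E-binding proteins compete with eIF4G for eIF4E, and mTORC1 releases this block by phosphorylating them. During elongation, eEF1A delivers aminoacyl transfer RNA, the eEF1B complex recharges eEF1A with GTP, and eEF2 moves the ribosome along. The colon epithelium renews itself continuously and secretes mucus and other proteins, both of which need sustained protein synthesis.

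Some libraries stood apart from the rest of their group. In Control replicate 9 the 10 most abundant genes took 23.1% of counts, against 9.72% to 17.3% in the other Control mice and at most 12.8% in the GWI mice, and mt-Co1 alone took 12.5%. This mouse had the highest level of 24 of the 66 tested members and the lowest level of 19. Control replicate 1 had the lowest level of 22 members. Markers of small intestine epithelium (9 genes, Fabp2 the most abundant, none without counts) summed to 2436 CPM (counts scaled to a common TMM-adjusted library size) in Control replicate 9, 1792 CPM in Control replicate 7 and 1213 CPM in Control replicate 6, and to between 397 and 1033 CPM in every other mouse. In Control replicate 9 this was nearly all Fabp2 (2334 CPM), while Anpep (2.86 CPM) and Fabp6 (6.55 CPM) were low. Control replicates 6 and 7 had 150 and 289 CPM of Anpep and 119 and 314 CPM of Fabp6, against at most 12.3 CPM and 6.90 CPM in the other mice. Results are therefore also given without Control replicate 9 and without Control replicates 1, 6, 7 and 9. Control replicate 1 was chosen by the levels of the members themselves. Leaving it out raises the Control level of the members it was lowest for, which favors calls of lower in GWI colons. Calls gained only without this mouse are to be read with that limit.

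The tissue label was checked against marker genes. Colon epithelium markers (11 genes, Car1 the most abundant) summed to 17968 to 39484 CPM in the Control group and 19307 to 36675 CPM in the GWI group, with 3 of 11 higher and 0 lower in GWI colons. Smooth muscle markers (10 genes, Myh11 the most abundant) summed to 3690 to 23923 CPM with a median of 11584 CPM in the Control group and to 3658 to 11832 CPM with a median of 5142 CPM in the GWI group. Of these, 7 of 10 were lower in GWI colons and 0 higher, where 13.5% of all tested genes were lower and 13.4% higher. Control replicates 2, 3, 7, 8 and 9 had 11584, 11188, 6790, 4702 and 3690 CPM of smooth muscle markers, within the range of the GWI mice. In pieces of tissue, fewer cells of a type and less RNA per cell cannot be told apart. A score of smooth muscle minus colon epithelium markers differed between the groups. It was -0.75 (Control replicate 9) to 1.78 in Control mice and -1.38 to 0.21 in GWI mice. A fit with it therefore separates group from tissue make-up only in part. With this score as a covariate, 22 of 66 translation factors were lower and 4 higher, against 13.9% and 9.43% of all genes in that fit. Of these, 11 lower and 3 higher ones were also called without the covariate. Eif3j2, Eif5a2, Eif5b and Eif4ebp3 lost their calls (adjusted p = 0.0706, 0.132, 0.225 and 0.277, edgeR quasi-likelihood test with Benjamini-Hochberg adjustment). Their log2 fold changes in that fit were -0.70, -0.66, -0.17 and 0.32. Newly called were Eefsec, which was higher, and Eef1akmt1, Eef1akmt2, Eif1a, Eif2a, Eif2s1, Eif2s2, Eif2s3y, Eif3h, Eif4a1, Eif4e and Etf1, which were lower. Control replicate 9 had the highest level of each of these lower genes but Eif3h, and the lowest level of Eefsec. The fit with the covariate was not run without that mouse. Among called members that stayed called, the log2 fold change grew by more than 1.5 times for Eif2b3 (-0.58), Eif3e (-1.13), Eif3m (-1.02), Eif5 (-0.56), Eef1e1 (-0.91) and Eif4g3 (0.56) and shrank by more than that for Eif1b (-0.35).

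Of the 66 tested translation factors, 14 were lower and 4 higher in GWI colons at an adjusted p under 0.05 (edgeR quasi-likelihood test with Benjamini-Hochberg adjustment over all 14146 genes). Over all tested genes 13.5% were lower and 13.4% higher, so the members' share was 21.2% lower and 6.06% higher. The median log2 fold change (GWI against Control) of the 66 members was -0.14 and that of all tested genes -0.06. A negative value was found in 47 of the 66 (71.2%), against 55.2% of all tested genes. The members lower in GWI colons were Eif1b, Eif1ax, Eif2b3, Eif3e, Eif3i, Eif3j1, Eif3j2, Eif3k, Eif3m, Eif5, Eif5b, Eif5a2, Eef1b2 and Eef1e1. Those higher were Eif4g1, Eif4g3, Eif4ebp2 and Eif4ebp3. Of the 14 lower members 6 encode eIF3 subunits, where eIF3 also holds 14 of the 66 tested members. Among these 6, Eif3j1 and Eif3j2 encode forms of the same subunit. The 4 higher members were scaffolds of the cap-binding complex or binding proteins of eIF4E. Without Control replicate 9, 13 members were lower and 4 higher, against 15.8% and 16.1% of the 14093 genes then tested. Without Control replicates 1, 6, 7 and 9, 21 were lower and 4 higher, against 16.4% and 18.2% of 14289 genes. Leaving out Control replicate 1 alone also gave 21 lower members, with 16.3% of all genes lower and 17.9% higher. As this mouse was chosen for its low member levels, the added lower calls are no independent support. With upper-quartile scaling, which shifts the median of all tested genes from -0.06 to -0.15, 25 members were lower and 2 higher, so that higher calls made up 7.41% of the members' calls in place of 22.2%. All genes moved the same way in that fit, to 21.2% lower and 8.58% higher. The signs of the 18 called members were the same under each of the other scalings tried (DESeq2 size factors, upper-quartile factors and library size alone).

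**Figure D1:**
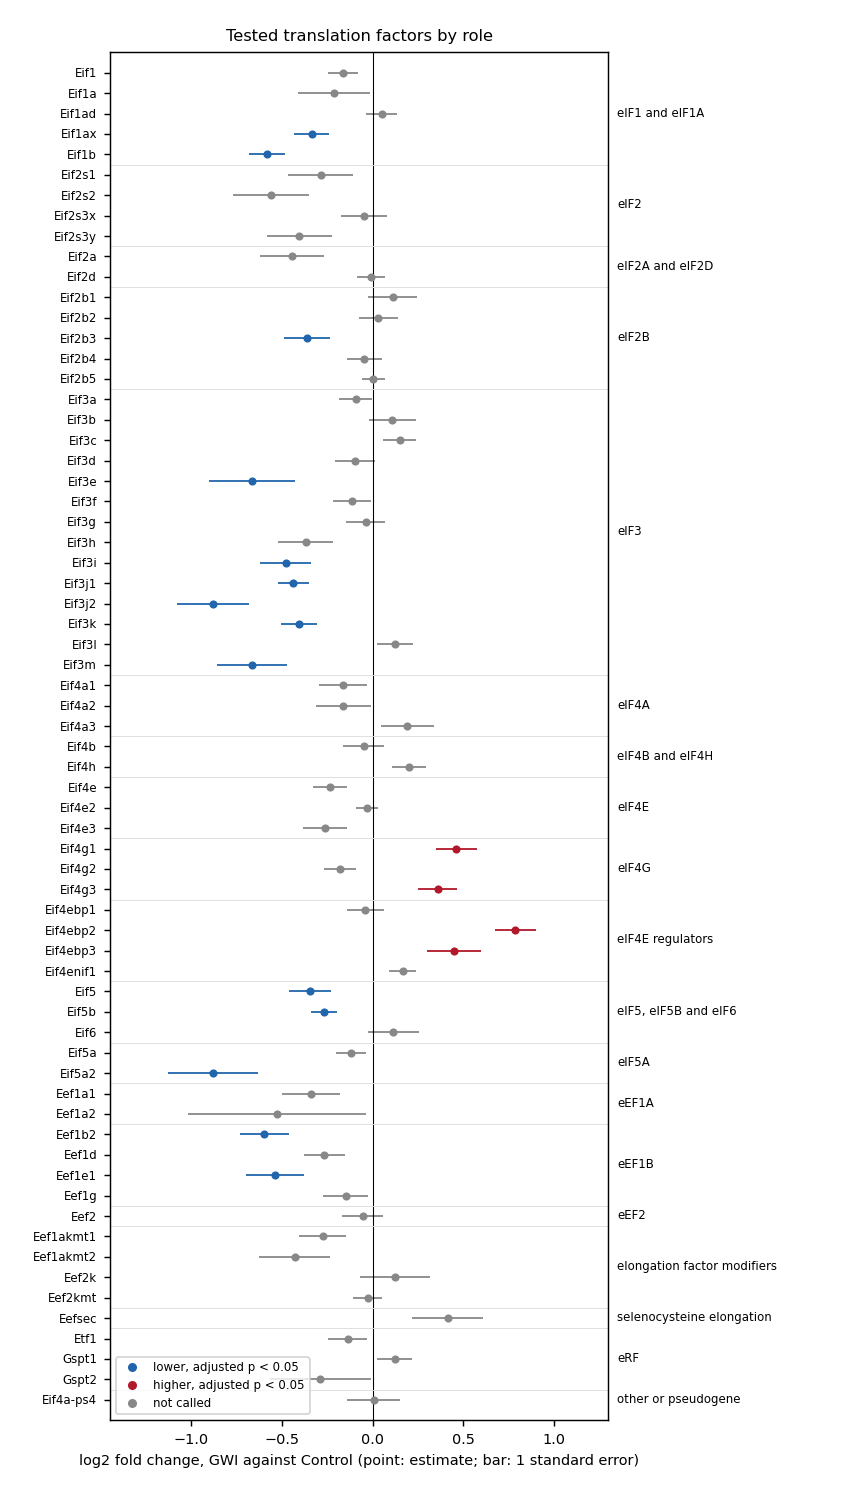
Log2 fold change, GWI against Control, of the 66 tested translation factors, grouped by role. Points are edgeR estimates from 9 Control and 8 GWI mice, bars are 1 standard error, and blue and red mark adjusted p under 0.05. The 14 lower members lie in several groups, 6 of them in eIF3, which holds 14 of the 66 tested members. The 4 higher members lie in the eIF4G group and among the eIF4E regulators.

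As a share of all counts, the 74 entries together made up 1.39% to 2.51% of a Control library (median 2.05%) and 1.55% to 2.09% of a GWI library (median 1.72%). The Control range held every GWI value, with Control replicate 1 at the low end and Control replicate 7 at the high end. Eef1a1 and Eef2 together supplied 41.1% to 56.3% of these counts in Control mice and 44.9% to 52.8% in GWI mice. GWI replicate 5, with 52 of the 66 tested members below the Control median, was the lowest of its group.

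The cap-binding complex and the proteins that regulate it held the 4 higher members. Eif4ebp2 encodes 4E-BP2, an eIF4E-binding protein that represses cap-dependent initiation until it is phosphorylated. Its level was 30.9 CPM in the lowest, 44.6 CPM in the median and 50.3 CPM in the highest Control mouse, and 51.7, 79.9 and 89.9 CPM in GWI mice. Every GWI mouse lay above every Control mouse, with GWI replicate 5 nearest to the Control group. Eif4ebp2 was the 1 member of 66 with this separation, which 1.83% of all tested genes showed, while 0 of 66 members had every GWI mouse below every Control mouse, against 0.523% of all genes. Its log2 fold change was 0.79 with a standard error of 0.11 (edgeR quasi-likelihood test with Benjamini-Hochberg adjustment, adjusted p = 0.000410). Without Control replicate 9 it was 0.74, and without Control replicates 1, 6, 7 and 9 it was 0.77. The gene lies on chromosome 10 at 61428491 to 61452661 (GRCm38, minus strand).

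The other eIF4E-binding proteins did not share one pattern. Eif4ebp1, which encodes 4E-BP1, had 19.8, 24.0 and 30.6 CPM in the lowest, median and highest Control mouse and 20.6, 22.8 and 29.2 CPM in GWI mice. The ranges nearly coincided, and the log2 fold change was -0.04 with a standard error of 0.10 (0.18, not called, with the smooth muscle and epithelium score as a covariate). Eif4ebp3, which encodes 4E-BP3, had 15.7, 20.5 and 28.3 CPM in Control mice and 19.9, 29.3 and 44.1 CPM in GWI mice. GWI replicates 4, 5, 6 and 7 exceeded the whole Control group, GWI replicate 5 being the highest. Its log2 fold change was 0.45 with a standard error of 0.15 (edgeR quasi-likelihood test with Benjamini-Hochberg adjustment, adjusted p = 0.0319). The call was lost when any of Control replicates 3, 4, 6 or 7 or GWI replicates 4, 5, 6 or 7 was left out, with an adjusted p of at most 0.0623 by the same edgeR test with Benjamini-Hochberg adjustment. It was also lost with upper-quartile factors (0.36), with the smooth muscle and epithelium score as a covariate (0.32) and with a block for replicate number. In addition, 67.3% of its exon length overlaps another gene model on the same strand (AC115631.1), so its counts are uncertain. Eif4enif1, whose product carries eIF4E into the nucleus, had a log2 fold change of 0.16 and was not called.

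Within a mouse, the ratio of one family member to another does not depend on how libraries are scaled, and 10 such ratios were compared by two-sided exact permutation over all 24310 splits of the mice into 9 and 8. The log2 ratio of Eif4ebp2 to Eif4ebp1 counts was 0.36 to 1.09 in Control mice and 1.11 to 2.12 in GWI mice. The groups did not overlap, and the mean difference was 0.82 (exact permutation p = 4.11e-05, the smallest these splits can give, 0.000206 after Benjamini-Hochberg adjustment over the 10 ratios). It was 0.79 without Control replicate 9 and 0.88 without Control replicates 1, 6, 7 and 9. In the median mouse there were 1.81 Eif4ebp2 counts per Eif4ebp1 count in the Control group and 3.33 in the GWI group.

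The eIF4G scaffolds join eIF4E, eIF4A and eIF3. Eif4g1 had 215, 372 and 442 CPM in the lowest, median and highest Control mouse and 421, 499 and 563 CPM in GWI mice. All GWI mice but GWI replicate 8 were above the whole Control group, and Control replicate 1 was the highest Control and Control replicate 9 the lowest. Its log2 fold change was 0.46 with a standard error of 0.11 (edgeR quasi-likelihood test with Benjamini-Hochberg adjustment, adjusted p = 0.00858), and 0.40 without Control replicate 9. Eif4g3, a second scaffold of the same kind, had 44.9, 72.3 and 92.2 CPM in Control mice and 83.1, 93.1 and 96.8 CPM in GWI mice. The highest Control value was again that of Control replicate 1, and 5 of 8 GWI mice exceeded it. Eif4g3 had a log2 fold change of 0.36 with a standard error of 0.11 (edgeR quasi-likelihood test with Benjamini-Hochberg adjustment, adjusted p = 0.0214), and the call was lost with upper-quartile factors and with library size alone.

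Eif4g2 encodes DAP5, a shorter relative that lacks the eIF4E-binding region. It had a log2 fold change of -0.18 and was not called, with 5 of 8 GWI mice below every Control mouse. With upper-quartile factors it was called at -0.27, and without Control replicates 1, 6, 7 and 9 it was -0.09 and not called. The log2 ratio of Eif4g2 to Eif4g1 counts was 1.06 to 2.32 in Control mice and 0.48 to 0.96 in GWI mice. All 8 GWI mice lay below all 9 Control mice, of which Control replicate 9 was the highest. The mean difference was -0.66 (exact permutation p = 4.11e-05, the smallest these splits can give, 0.000206 after Benjamini-Hochberg adjustment over the 10 ratios), and it was -0.53 without Control replicate 9. The ratio of Eif4g3 to Eif4g1 differed by -0.10 between the groups (exact permutation p = 0.107, 0.178 adjusted over the 10 ratios).

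The cap-binding proteins themselves were not called. Eif4e had 66.5, 76.8 and 109 CPM in the lowest, median and highest Control mouse and 63.9, 68.4 and 76.5 CPM in GWI mice. The groups overlapped, with 3 of 8 GWI mice below every Control mouse. Its log2 fold change was -0.23 with a standard error of 0.09 (edgeR quasi-likelihood test with Benjamini-Hochberg adjustment, adjusted p = 0.0707). Eif4e2 and Eif4e3, which bind the cap more weakly, had log2 fold changes of -0.03 and -0.26. Eif4e was called at -0.43 with the smooth muscle and epithelium score as a covariate and at -0.33 with upper-quartile factors, and it was -0.04 and not called with GC and length offsets. Leaving out 1 library brought calls for Eif4e (-0.25 without Control replicate 1, -0.27 without Control replicate 2) and for Eif4e3 (-0.31 without Control replicate 1, -0.33 without GWI replicate 8), with adjusted p of 0.0296, 0.0453, 0.0371 and 0.0429 (edgeR quasi-likelihood test with Benjamini-Hochberg adjustment). Eif4e1b, an oocyte form, had 0 or 1 count in every mouse and was not tested.

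Nor were the helicases and their cofactors called with all mice and no covariate. Eif4a1, the main eIF4A helicase, had 330, 372 and 634 CPM in the lowest, median and highest Control mouse and 326, 397 and 421 CPM in GWI mice. Its close relative Eif4a2 had 340, 429 and 874 CPM in Control mice and 357, 420 and 481 CPM in GWI mice. For both genes Control replicate 9 was the highest mouse and the remaining values overlapped. Their log2 fold changes were -0.17 and -0.16, and without Control replicate 9 they were -0.07 and 0.01. With the smooth muscle and epithelium score as a covariate Eif4a1 was called at -0.52 (edgeR quasi-likelihood test with Benjamini-Hochberg adjustment, adjusted p = 0.0123). The ratio of Eif4a2 to Eif4a1 differed by 0.02 on the log2 scale (exact permutation p = 0.881, and 0.881 adjusted over the 10 ratios). The log2 fold changes of Eif4a3, the helicase of the exon junction complex, and of the cofactors Eif4b and Eif4h were 0.19, -0.05 and 0.20.

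**Figure D2:**
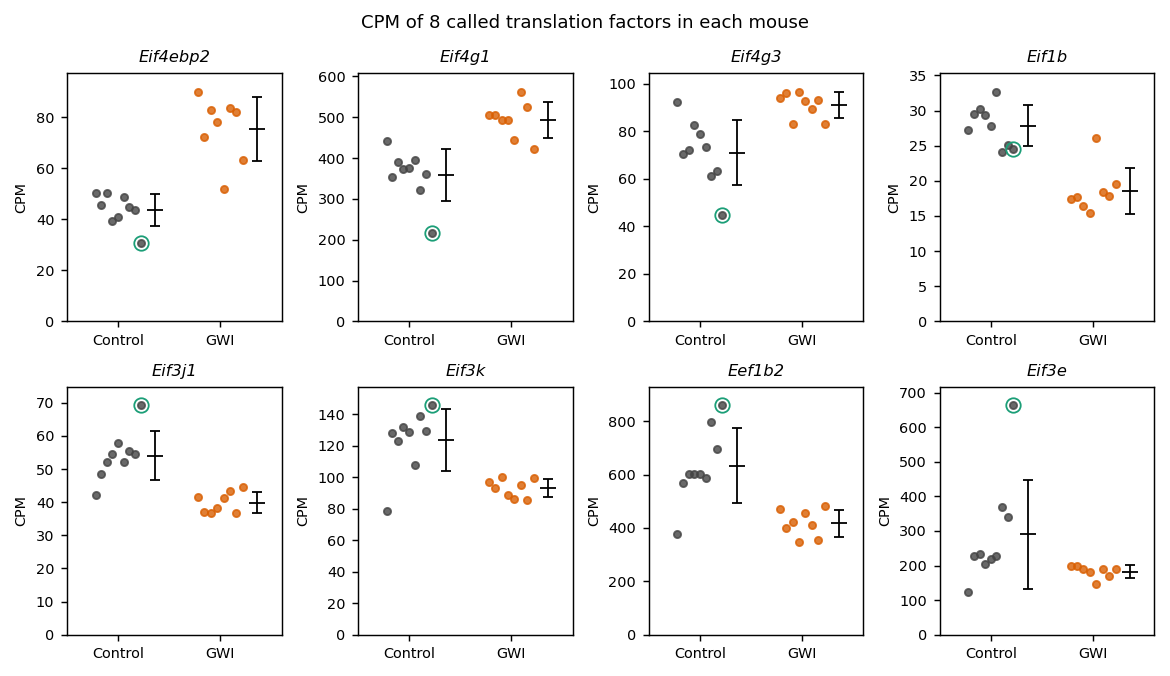
Levels in CPM (vertical axes from 0) of 8 called translation factors in each of the 9 Control and 8 GWI mice. Bars give the mean ± SD beside each group, and a green ring marks Control replicate 9. Eif4ebp2 separates the groups completely, while Eif3e has 1 Control mouse at 664 CPM and all GWI mice between 145 and 200 CPM.

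The eIF3 complex, the large platform that holds the preinitiation complex together, had 14 genes in the table, all of them tested. Of these, 6 were lower in GWI colons and 0 higher, and 11 had a negative log2 fold change, with a median of -0.24. Over all tested genes 13.5% were lower, 13.4% higher and 55.2% negative, with a median of -0.06. Eif3j1 and Eif3j2 encode near-identical forms of the loosely bound subunit eIF3j. Eif3j1 had 42.2, 54.5 and 69.4 CPM in the lowest, median and highest Control mouse and 36.6, 39.7 and 44.5 CPM in GWI mice. Among the GWI mice, 6 of 8 lay below every Control mouse, and Control replicate 1 was the lowest Control. The log2 fold change was -0.44 with a standard error of 0.09 (edgeR quasi-likelihood test with Benjamini-Hochberg adjustment, adjusted p = 0.00238). Eif3j2 was scarce, with 8 to 28 counts per mouse, and had 0.717, 1.14 and 1.56 CPM in Control mice against 0.459, 0.602 and 0.885 CPM in GWI mice. Of the 8 GWI mice, 7 lay below every Control mouse. Its log2 fold change was -0.88 with a standard error of 0.20 (edgeR quasi-likelihood test with Benjamini-Hochberg adjustment, adjusted p = 0.00537). The call was lost with the smooth muscle and epithelium score as a covariate, at -0.70, and with GC and length offsets, at -0.63. Reads that fit both copies equally well were not counted for either, so the level of each is uncertain, and 19.0% of the exon length of Eif3j1 overlaps Spg11 on the opposite strand.

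Eif3k had 78.3, 128 and 146 CPM in the lowest, median and highest Control mouse and 85.5, 93.9 and 100 CPM in GWI mice. Every GWI mouse lay below every Control mouse except Control replicate 1. The log2 fold change was -0.41 with a standard error of 0.10 (edgeR quasi-likelihood test with Benjamini-Hochberg adjustment, adjusted p = 0.00781). Eif3i, a small subunit of the group that binds eIF3b, had 91.5, 165 and 233 CPM in Control mice and 106, 121 and 137 CPM in GWI mice. Its ranges overlapped only through Control replicates 1 and 6. Eif3i had a log2 fold change of -0.48 with a standard error of 0.14 (edgeR quasi-likelihood test with Benjamini-Hochberg adjustment, adjusted p = 0.0182).

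Eif3e and Eif3m, which belong to the core of the complex, showed the weight of Control replicate 9. Eif3m had 74.8, 128 and 308 CPM in the lowest, median and highest Control mouse and 80.7, 95.5 and 102 CPM in GWI mice. The value of 308 CPM was that of Control replicate 9, and the next Control mouse had 175 CPM. The change on the log2 scale was -0.67 with a standard error of 0.19, and -0.45 without Control replicate 9 (edgeR quasi-likelihood test with Benjamini-Hochberg adjustment, adjusted p = 0.0180 and 0.0134). It was -0.27 with GC and length offsets and -1.02 with the smooth muscle and epithelium score as a covariate. Eif3e had 124, 228 and 664 CPM in Control mice and 145, 189 and 200 CPM in GWI mice. Again Control replicate 9 was the highest, with 369 CPM in the next, and Control replicate 1 was below all GWI mice. Eif3e had a log2 fold change of -0.67 with a standard error of 0.24, and -0.41 without Control replicate 9 (edgeR quasi-likelihood test with Benjamini-Hochberg adjustment, adjusted p = 0.0453 and 0.0712). The call of Eif3e was also lost without Control replicate 7 or 8 or without any 1 of the 8 GWI mice, with adjusted p up to 0.0786 in these edgeR fits (Benjamini-Hochberg adjustment).

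The remaining 8 subunit genes were not called in the main edgeR fit (all mice, TMM scaling, no covariate). Eif3a, the largest subunit and the scaffold of the complex, had 267, 335 and 362 CPM in the lowest, median and highest Control mouse and 257, 295 and 357 CPM in GWI mice. The groups overlapped almost wholly, and its log2 fold change was -0.09 with a standard error of 0.09. Log2 fold changes of Eif3b, Eif3c, Eif3d, Eif3f, Eif3g, Eif3h and Eif3l lay between -0.37 for Eif3h and 0.15 for Eif3c, and Eif3h was called at -0.43 when Control replicate 1 was left out (edgeR quasi-likelihood test with Benjamini-Hochberg adjustment, adjusted p = 0.0136). Eif3d was called at -0.27 and Eif3h at -0.36 without Control replicates 1, 6, 7 and 9. Eif3h was also called at -0.46 with upper-quartile factors and at -0.57 with the smooth muscle and epithelium score as a covariate. Limma-voom with quality weights called Eif3d, Eif3f and Eif3h at -0.24, -0.19 and -0.24. Antisense exons cover 43.3% of the exon length of Eif3d, so its count is uncertain. In GWI replicate 5 all 14 eIF3 genes were below the Control median, in GWI replicate 1 there were 7, and in the other GWI mice 11 to 13. Control replicate 1 had 13 below it, so a low level of most subunits was not limited to the GWI group. In Control replicate 9 the subunits diverged, with Eif3e 1.54 and Eif3m 1.27 above the Control median on the log2 scale and Eif3b -0.97 and Eif3g -0.66 from it.

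**Figure D3:**
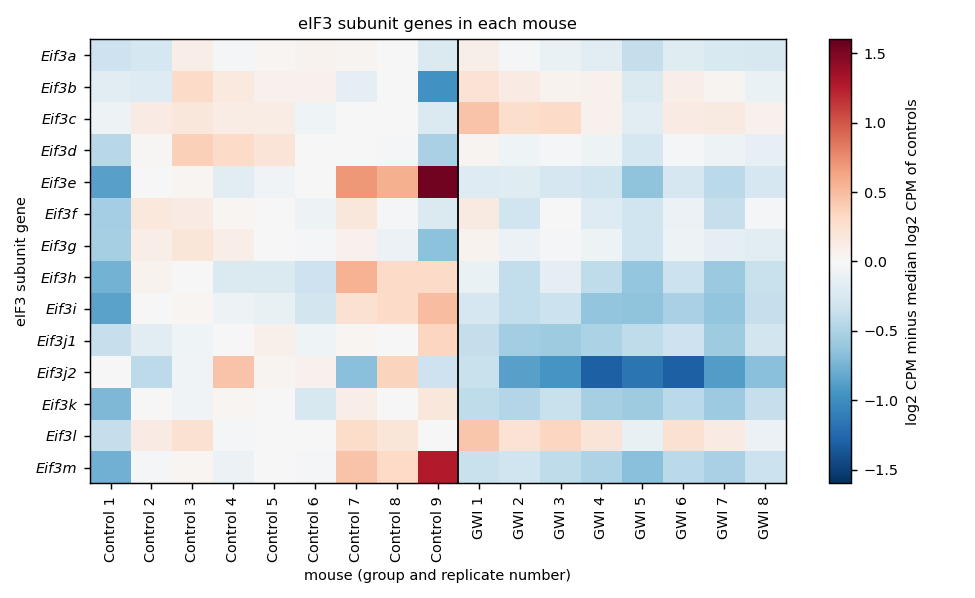
Level of the 14 eIF3 subunit genes (rows) in each mouse (columns, Control left of the line and GWI right), as log2 CPM minus the median log2 CPM of the Control group. Eif3e, Eif3h, Eif3i, Eif3j1, Eif3j2, Eif3k and Eif3m are below 0 in all GWI mice, Control replicate 1 is below 0 for 13 of 14 genes, and Control replicate 9 ranges from -0.97 for Eif3b to 1.54 for Eif3e.

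The factors eIF1 and eIF1A hold the ribosome open while it scans for the start codon. Eif1b, which encodes a close relative of eIF1, had 24.1, 27.8 and 32.7 CPM in the lowest, median and highest Control mouse and 15.4, 17.7 and 26.0 CPM in GWI mice. Of the 8 GWI mice, 7 lay below every Control mouse, the exception being GWI replicate 5 at 26.0 CPM. The log2 fold change was -0.58 with a standard error of 0.10 (edgeR quasi-likelihood test with Benjamini-Hochberg adjustment, adjusted p = 0.00117), and -0.60 without Control replicate 9. With the smooth muscle and epithelium score as a covariate it was -0.35 and called (edgeR with Benjamini-Hochberg adjustment, adjusted p = 0.0381). An antisense transcript overlaps 12.7% of the exon length of Eif1b, which adds doubt to its count. Eif1 itself had a log2 fold change of -0.16 and was not called, but it was called at -0.23 without Control replicates 1, 6, 7 and 9, at -0.26 with upper-quartile factors and at -0.25 by limma-voom with quality weights. The log2 ratio of Eif1b to Eif1 counts was -3.71 to -3.32 in Control mice and -4.20 to -3.58 in GWI mice, with 7 of 8 GWI mice below every Control mouse. The mean difference was -0.43 (exact permutation p = 0.000329, 0.00110 after Benjamini-Hochberg adjustment over the 10 ratios).

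Eif1ax, the X-linked gene for eIF1A, had 75.6, 105 and 144 CPM in the lowest, median and highest Control mouse and 77.5, 82.5 and 93.4 CPM in GWI mice. Control replicate 1 lay below all GWI mice and the other 8 Control mice above them. Between groups the log2 fold change was -0.34 with a standard error of 0.10 (edgeR quasi-likelihood test with Benjamini-Hochberg adjustment, adjusted p = 0.0162). The call was lost with GC and length offsets, at -0.12, and with a block for replicate number. The autosomal copy Eif1a was highest in Control replicate 9, at 243 CPM, and had a log2 fold change of -0.21 in all mice and 0.01 without that mouse (-0.73, called, with the covariate). Reads shared by these near-identical copies were not counted for either. Eif1ad, which encodes a related protein of ribosome maturation, had 0.05.

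The 3 subunits of eIF2, whose alpha subunit is the target of the stress kinases, were not called. Eif2s1 encodes this alpha subunit and had 36.1, 52.8 and 107 CPM in the lowest, median and highest Control mouse and 39.0, 55.9 and 58.2 CPM in GWI mice. The groups overlapped, with Control replicate 9 highest, and its log2 fold change was -0.29 with a standard error of 0.18. It was -0.15 without Control replicate 9, and -0.72 and called with the smooth muscle and epithelium score as a covariate (edgeR quasi-likelihood test with Benjamini-Hochberg adjustment, adjusted p = 0.0140). Eif2s2, the beta subunit, had -0.56 with a standard error of 0.21 (edgeR quasi-likelihood test with Benjamini-Hochberg adjustment, adjusted p = 0.0536). The gamma subunit has a copy on each sex chromosome. The Y-linked Eif2s3y had 1185 to 3209 counts in every mouse, all of which were male, and its log2 fold change was -0.41 (-0.18 without Control replicate 9 and -0.90, called, with the covariate), while that of the X-linked Eif2s3x was -0.05. The alternative initiator carriers Eif2a and Eif2d had -0.45 and -0.01. Eif2s2 was called without Control replicate 3, 6 or 7 or GWI replicate 8, with log2 fold changes of -0.63, -0.64, -0.62 and -0.66, and Eif2a without Control replicate 1, with -0.51 (adjusted p = 0.0402, 0.0282, 0.0393, 0.0307 and 0.0126, edgeR quasi-likelihood test with Benjamini-Hochberg adjustment). Without Control replicate 9, the highest mouse for both genes, Eif2s2 was -0.39 and Eif2a -0.28, and neither was called. Without Control replicates 1, 6, 7 and 9 both were called, at -0.44 and -0.31. With GC and length offsets they were -0.33 and -0.20 and not called. Eif2s2 was called in 7 and Eif2a in 3 of the 12 alternatives other than leaving out 1 mouse.

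Among the 5 genes of eIF2B, the exchange factor that recharges eIF2 with GTP, only Eif2b3 was called in the main edgeR fit. It had 9.35, 11.3 and 17.6 CPM in the lowest, median and highest Control mouse and 7.82, 8.82 and 11.2 CPM in GWI mice. The groups overlapped, with 5 of 8 GWI mice below every Control mouse. The change on the log2 scale was -0.36 with a standard error of 0.13 (edgeR quasi-likelihood test with Benjamini-Hochberg adjustment, adjusted p = 0.0433). The call was lost without any 1 of Control replicates 3, 6, 7, 8 and 9 or GWI replicates 3 to 8, with adjusted p up to 0.0799 in these edgeR fits (Benjamini-Hochberg adjustment). Eif2b5, the catalytic subunit, had 48.7, 57.2 and 62.1 CPM in Control mice and 51.8, 56.7 and 62.5 CPM in GWI mice. Its ranges were nearly the same and the log2 fold change was 0.00 with a standard error of 0.06. The other 3 genes lay between -0.05 and 0.11, and Eif2b4 was called at -0.17 by limma-voom with quality weights.

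Late initiation factors act when the start codon has been found and the large subunit joins. Eif5, the GTPase-activating protein of eIF2, had 329, 353 and 585 CPM in the lowest, median and highest Control mouse and 260, 301 and 340 CPM in GWI mice. Of the GWI mice, 6 of 8 lay below every Control mouse, and Control replicate 9 was far above its group, with 386 CPM in the next mouse. The log2 fold change was -0.35 with a standard error of 0.11, and -0.24 without Control replicate 9 (edgeR quasi-likelihood test with Benjamini-Hochberg adjustment, adjusted p = 0.0340 and 0.0247). The call was lost without Control replicate 4 or without GWI replicate 1, 3, 4, 5 or 7, with adjusted p up to 0.0700 in these edgeR fits (Benjamini-Hochberg adjustment).

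Eif5b, the GTPase that joins the subunits, had 109, 122 and 139 CPM in the lowest, median and highest Control mouse and 87.2, 103 and 115 CPM in GWI mice. Here 7 of 8 GWI mice lay below every Control mouse, of which Control replicate 9 was the lowest. The log2 fold change was -0.27 with a standard error of 0.07 (edgeR quasi-likelihood test with Benjamini-Hochberg adjustment, adjusted p = 0.0136). With the smooth muscle and epithelium score as a covariate it was -0.17 and not called (edgeR with Benjamini-Hochberg adjustment, adjusted p = 0.225). Its exons overlap Rev1 on the opposite strand over 16.8% of their length, which makes the count uncertain if strand was not used. Eif6, which keeps the large subunit from joining too early, had 123, 198 and 301 CPM in Control mice and 178, 214 and 269 CPM in GWI mice. The Control group spanned all GWI values, and the log2 fold change was 0.11 with a standard error of 0.14.

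The factor eIF5A helps ribosomes form difficult peptide bonds and carries the modified residue hypusine. Eif5a, the common form, had 332, 406 and 484 CPM in the lowest, median and highest Control mouse and 361, 388 and 408 CPM in GWI mice. All GWI values fell within the Control range, and the log2 fold change was -0.12 with a standard error of 0.08. Eif5a was called at -0.24 without Control replicates 1, 6, 7 and 9 (edgeR quasi-likelihood test with Benjamini-Hochberg adjustment, adjusted p = 0.0123) and at -0.18 by limma-voom with quality weights. Eif5a2, the scarce second form, had 3.17, 6.96 and 10.8 CPM in Control mice and 1.89, 3.52 and 5.49 CPM in GWI mice. The groups overlapped, with 3 of 8 GWI mice below every Control mouse. Between groups the log2 fold change was -0.88 with a standard error of 0.25 (edgeR quasi-likelihood test with Benjamini-Hochberg adjustment, adjusted p = 0.0166). With the covariate it was -0.66 and not called, and without Control replicates 1, 6, 7 and 9 it was -0.63 and not called (edgeR with Benjamini-Hochberg adjustment, adjusted p = 0.0686). The ratio of Eif5a2 to Eif5a differed by -0.74 on the log2 scale (exact permutation p = 0.0261, 0.0652 after Benjamini-Hochberg adjustment over the 10 ratios). Both genes of the hypusine pathway were tested, and Dohh, the hydroxylase, was lower with a log2 fold change of -0.29 (edgeR quasi-likelihood test with Benjamini-Hochberg adjustment, adjusted p = 0.0244), while Dhps was not called.

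Elongation factors were the most abundant members. Per kilobase of exon, the mean level of Eef1a1 was 2712 CPM in Control and 2144 CPM in GWI mice, and by the mean over all 17 mice the next 4 members on this scale were Eef2 with 972 and 935 CPM, Eef1b2 with 250 and 165 CPM, Eef1g with 227 and 205 CPM, and Eif5a with 175 and 161 CPM. In the Control group alone Eif3h, with 178 CPM, was above Eif5a. In contrast, Eef1a2 had 16.4 and 11.4 CPM per kilobase. Eef1a1, the main eEF1A gene, had 3734, 6283 and 9654 CPM in the lowest, median and highest Control mouse and 4420, 5171 and 6921 CPM in GWI mice. The Control range held all GWI values, from Control replicate 1 at the bottom to Control replicate 7 at the top. The change on the log2 scale was -0.34 with a standard error of 0.16 and was not called (edgeR quasi-likelihood test with Benjamini-Hochberg adjustment, adjusted p = 0.120), but it was -0.40 and called when Control replicate 1 was left out (edgeR with Benjamini-Hochberg adjustment, adjusted p = 0.0242). Eef1a1 has processed pseudogene copies, and reads that also fit these were not counted as unique.

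Eef1a2 encodes the eEF1A form of neurons and striated muscle. Its level was 5.16, 30.8 and 68.6 CPM in the lowest, median and highest Control mouse and 10.6, 20.3 and 48.9 CPM in GWI mice. Control replicates 7, 8 and 9 were lowest of all mice, at 5.16 to 6.57 CPM, and Control replicates 1 and 4 highest. On the log2 scale the change was -0.53 with a standard error of 0.49 and was not called (edgeR quasi-likelihood test with Benjamini-Hochberg adjustment, adjusted p = 0.425). It was 0.99 and not called with the smooth muscle and epithelium score as a covariate (edgeR with Benjamini-Hochberg adjustment, adjusted p = 0.302). With limma-voom and quality weights it was -1.03 and called (adjusted p = 0.0226 in place of 0.425 by the edgeR quasi-likelihood test with Benjamini-Hochberg adjustment). After its values were seen, the level of Eef1a2 was compared across mice with the mean log2 level of 3 marker lists, over all mice and within each group, 9 relations in all. With enteric neuron markers (10 genes, Uchl1 the most abundant), Pearson's r was 0.989 and Spearman's rho 0.933 over the 9 Control mice (exact permutation p = 7.99e-05 and 0.000750, adjusted 0.000240 and 0.00225 over the 9 relations).

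Over the 8 GWI mice, r with the enteric neuron markers was 0.990 and rho was 1 (exact permutation p = 2.48e-05 and 4.96e-05, adjusted 0.000112 and 0.000223), where these are the smallest p-values 8 mice allow for r and for rho. Over all 17 mice r was 0.980 and rho 0.978 (permutation p = 1e-05 for each, the smallest that 100000 resamples can give, 9e-05 adjusted). Leaving out the 2 mice farthest from the median of the markers gave r of 0.991 in Control, 0.969 in GWI and 0.974 in all mice. The relation of Eef1a2 to enteric neuron markers therefore held within each group. With smooth muscle markers r was 0.795 in Control and 0.747 in GWI mice (exact permutation p = 0.0123 and 0.0344, adjusted 0.0184 and 0.0442) and rho 0.700 and 0.429 (exact permutation p = 0.0433 and 0.299, adjusted 0.0649 and 0.337). Without the 2 farthest mice these r values were 0.499 and -0.43. Over all 17 mice r was 0.692 and rho 0.686 with smooth muscle markers (permutation p = 0.00247 and 0.00325, adjusted 0.00556 and 0.00731), with r of 0.765 without 2 mice. With skeletal muscle markers (10 genes, Ckm the most abundant), r was 0.799 in Control and -0.14 in GWI mice (exact permutation p = 0.00763 and 0.742, adjusted 0.0137 and 0.742), and rho 0.750 and -0.02 (exact permutation p = 0.0255 and 0.977, adjusted 0.0459 and 0.977). Without 2 mice these r values were 0.877 and -0.05, and over all 17 mice r was 0.346 and rho 0.424 (permutation p = 0.171 and 0.0907, adjusted 0.192 and 0.117), with r of 0.530 without 2 mice. Enteric neuron markers summed to 78.5 to 570 CPM in Control and 105 to 377 CPM in GWI mice, and 0 of 10 were called in either direction (edgeR quasi-likelihood test). All 10 had a negative log2 fold change (median -0.58). The ratio of Eef1a2 to Eef1a1 differed by 0.21 on the log2 scale (exact permutation p = 0.771, 0.856 adjusted over the 10 ratios).

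The eEF1B complex exchanges GDP for GTP on eEF1A, and of its subunit genes Eef1b2, Eef1d and Eef1g the first was lower in GWI colons. Eef1b2, its catalytic alpha subunit, had 378, 603 and 861 CPM in the lowest, median and highest Control mouse and 346, 417 and 481 CPM in GWI mice. Apart from Control replicate 1 at 378 CPM, all Control mice lay above all GWI mice. In the edgeR fit it had a log2 fold change of -0.60 with a standard error of 0.13 (edgeR quasi-likelihood test with Benjamini-Hochberg adjustment, adjusted p = 0.00522), and -0.52 without Control replicate 9. Eef1e1, which encodes a small protein related to eEF1B that sits in the multisynthetase complex, had 13.9, 20.6 and 38.8 CPM in Control mice and 13.3, 16.5 and 17.8 CPM in GWI mice. The low Control mice overlapped with the GWI mice, and Control replicate 9 was the highest. Eef1e1 had a log2 fold change of -0.54 with a standard error of 0.16, and -0.41 without Control replicate 9 (edgeR quasi-likelihood test with Benjamini-Hochberg adjustment, adjusted p = 0.0203 and 0.0274).

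Eef1g, the structural gamma subunit, had 340, 616 and 700 CPM in the lowest, median and highest Control mouse and 454, 538 and 623 CPM in GWI mice. Control replicate 1 was far below its group, with 528 CPM in the next mouse, and the groups otherwise overlapped. Eef1g had a log2 fold change of -0.15 with a standard error of 0.13, and without Control replicates 1, 6, 7 and 9 it was -0.28 and called (edgeR quasi-likelihood test with Benjamini-Hochberg adjustment, adjusted p = 0.375 and 0.0331). Eef1d, the delta subunit, had -0.27 and was not called, but it was called without Control replicate 1 (-0.32) and without Control replicate 9 (-0.31; edgeR quasi-likelihood test with Benjamini-Hochberg adjustment, adjusted p = 0.0818 with all mice, 0.0207 and 0.0221). With the smooth muscle and epithelium score as a covariate Eef1d was 0.00 and Eef1g -0.05, and neither was called.

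Eef2, the translocase, had 2352, 3319 and 4032 CPM in the lowest, median and highest Control mouse and 2763, 2992 and 3622 CPM in GWI mice. All GWI values lay within the Control range, and the log2 fold change was -0.06 with a standard error of 0.11. Eef2k, the kinase that inactivates eEF2, had 47.3, 63.2 and 143 CPM in Control mice and 61.3, 78.1 and 118 CPM in GWI mice. Control replicate 1 was the highest, the groups overlapped, and the log2 fold change was 0.12 with a standard error of 0.19. The methyltransferase genes Eef1akmt1, Eef1akmt2 and Eef2kmt had -0.28, -0.43 and -0.03. Eefsec, which delivers selenocysteine transfer RNA, had 0.41, and none of these genes was called in the main edgeR fit. With the smooth muscle and epithelium score as a covariate Eefsec was called at 0.91, Eef1akmt1 at -0.47 and Eef1akmt2 at -0.84. Upper-quartile factors also brought calls for Eef1akmt1 (-0.37) and Eef1akmt2 (-0.52). Eef1akmt2 was called at -0.49 without Control replicate 1 (edgeR quasi-likelihood test with Benjamini-Hochberg adjustment, adjusted p = 0.0446).

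Release factors end translation at the stop codon. Etf1, which encodes eRF1, had 131, 149 and 246 CPM in the lowest, median and highest Control mouse and 139, 147 and 157 CPM in GWI mice. Control replicate 9 was the highest and the GWI mice lay within the Control range, and the log2 fold change was -0.14 with a standard error of 0.11 (-0.03 without Control replicate 9 and -0.37, called, with the smooth muscle and epithelium score as a covariate). Gspt1, which encodes its partner eRF3a, had 66.5, 84.5 and 98.8 CPM in Control mice and 72.9, 93.5 and 104 CPM in GWI mice. The ranges overlapped and the log2 fold change was 0.12 with a standard error of 0.10 (0.27, called, by limma-voom with quality weights). Gspt2, an intronless relative, had 16 to 75 counts per mouse and a log2 fold change of -0.29. The ratio of Gspt2 to Gspt1 differed by -0.37, that of Eif4e3 to Eif4e by -0.05 and that of Eif4e2 to Eif4e by 0.19 on the log2 scale (exact permutation p = 0.310, 0.759 and 0.0508, and 0.443, 0.856 and 0.102 adjusted over the 10 ratios).

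The other 8 entries had names outside these roles or hardly any counts. Eif4a-ps4, a processed pseudogene of eIF4A, was tested and had a log2 fold change of 0.00. The remaining 7 with Eif4e1b made up the 8 entries that were not tested. Eif1-ps3 and Eif2c5, the latter a model with an older Argonaute name and no translation factor, had 0 counts in every mouse. Eif1-ps1, Eif3s6-ps1 and Eif3s6-ps2 had at most 5 counts in a mouse, Eif5al3-ps at most 4 and Eif3s6-ps4 at most 2.

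Called members differed in base composition. The longest transcript of the 14 lower members had a median GC content of 43.1%, that of the 4 higher members 52.9%, and that of the 48 members not called 49.8%, against 49.9% over all tested genes with a gene model. When the trend of each mouse with GC content and length was removed by offsets, 8 of 66 members were lower and 4 higher, against 11.9% lower and 15.8% higher over all genes in that fit, and the median of the 66 log2 fold changes was -0.07. The share of lower calls among members was then close to that of all genes. The calls of Eif1ax, Eif3e, Eif3j2, Eif5, Eif5a2 and Eif5b were lost in that fit, with log2 fold changes of -0.12, -0.32, -0.63, -0.19, -0.66 and -0.21. Without offsets these were -0.34, -0.67, -0.88, -0.35, -0.88 and -0.27. Eif1b, Eif2b3, Eif3i, Eif3j1, Eif3k, Eif3m, Eef1b2 and Eef1e1 were called at -0.44, -0.35, -0.42, -0.30, -0.42, -0.27, -0.45 and -0.35. Without offsets they had -0.58, -0.36, -0.48, -0.44, -0.41, -0.67, -0.60 and -0.54, so all of them but Eif3k had a smaller change with offsets.

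RefSeq promoter windows (GRCm38.p6, 250 bases before to 50 after the annotated start) were available for 49 of the 66 tested members and were searched on both strands for a pair of motifs common in promoters of housekeeping genes. These were CCGGAAG, the core recognized by ETS factors, and CACGTG, the E-box recognized by MYC and related factors, and the motifs do not overlap each other. CCGGAAG occurred in 17 of the 49 members (34.7%), in 5 of the 10 lower members with a window and in 1 of the 3 higher ones, against 18.1% of all 10936 tested genes with a window and 9.93% of all 27025 genes. CACGTG occurred in 12 of the 49 members (24.5%), in 3 of the 10 lower and 1 of the 3 higher members, against 11.3% and 8.09%. A match is a string of letters and shows no binding. Matches in Eif5a2 and Eif1ax, and further ones in Eif1b and Eif4g1, are not shown. The stretches of 30 bases below are a selection of matches in called members. In each, the motif is in capitals, or its reverse complement where the motif is on the other strand. They allow the sequence around the motif to be compared between lower and higher genes.
Eif1b (lower), chr9:120492445-120492474, plus strand: cgccgttgcacCCGGAAGcgcctccgcccg
Eif3m (lower), chr2:105017064-105017093, minus strand: ctgtggctgacCCGGAAGcggttgtgcgta
Eef1b2 (lower), chr1:63176821-63176850, plus strand: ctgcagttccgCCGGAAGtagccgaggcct
Eif4ebp2 (higher), chr10:61452775-61452804, minus strand: gccttcgaccgCTTCCGGtagtcatcgttg
Eif3k (lower), chr7:28981914-28981943, minus strand: tggaaggaaatCACGTGgtagacaaaaaaa
Eif4g1 (higher), chr16:20672662-20672691, plus strand: gcagtgggtgtCACGTGatggggcggagca

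Genes that work with the translation factors were followed in 10 lists. Cytosolic ribosomal proteins, by name pattern, had 77 of 88 tested genes lower and 0 higher in GWI colons, and their median log2 fold change was -0.66. Their summed level was 29809, 51708 and 90925 CPM in the lowest, median and highest Control mouse and 31546, 35406 and 40316 CPM in GWI mice, with Control replicate 9 highest and Control replicate 1 below all GWI mice. The log2 fold changes of Rps12 and Rpl38, which had the smallest p-values, were -0.80 and -0.75 (edgeR quasi-likelihood test with Benjamini-Hochberg adjustment, adjusted p = 0.00120 and 0.00134). Among partners of initiation, such as poly(A)-binding proteins and their regulators, 5 of 20 were lower and 1 higher. Tpt1, the translationally controlled tumor protein, and Serbp1, which binds idle ribosomes, had -0.71 and -0.39, and Larp1, which binds the messenger RNAs of ribosomal proteins, had 0.34 (edgeR quasi-likelihood test with Benjamini-Hochberg adjustment, adjusted p = 0.0128, 0.0222 and 0.0166).

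Of the 9 genes for eIF2 alpha kinases, their activators and the phosphatase subunits, 3 were higher and 0 lower. Eif2ak3, which encodes PERK, the kinase of the endoplasmic reticulum, had 22.4, 27.3 and 32.2 CPM in the lowest, median and highest Control mouse and 33.4, 40.1 and 48.3 CPM in GWI mice. Every GWI mouse lay above every Control mouse. Between groups the log2 fold change was 0.53 with a standard error of 0.09, and that of Eif2ak1, which encodes the heme-regulated kinase, was 0.44 (edgeR quasi-likelihood test with Benjamini-Hochberg adjustment, adjusted p = 0.00117 and 0.00214).

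Upstream of the eIF4E-binding proteins, the list of mTORC1 and MNK signalling had 4 of 21 genes lower and 4 higher. Sesn2, a stress-induced inhibitor of mTORC1, had 11.6, 12.8 and 17.01 CPM in the lowest, median and highest Control mouse and 16.7, 26.9 and 36.2 CPM in GWI mice. The highest Control mouse and the lowest GWI mouse just overlapped. Log2 fold changes were 0.97 for Sesn2 and 0.33 for Mknk2, a kinase of eIF4E, and -0.44 for Rheb, the GTPase that activates mTORC1, and -0.71 for Rragd (edgeR quasi-likelihood test with Benjamini-Hochberg adjustment, adjusted p = 0.000249, 0.0286, 0.00591 and 0.00785). The other called genes of this list were Mtor (0.34) and Tsc2 (0.36), which were higher, and Sesn1 (-0.42) and Rragb (-0.79), which were lower, so activators and inhibitors of mTORC1 were called in both directions.

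Of 23 cytosolic aminoacyl-tRNA synthetase genes, 2 were lower (Aimp1 -0.50 and Tarsl2 -0.55 in log2 fold change) and 1 higher (Gars 0.33). Of 10 mitochondrial translation factors, 1 was lower (Mrrf -0.37) and 2 higher (Gfm2 0.48 and Tufm 0.53). Among 10 genes of ribosome recycling and rescue, 1 was lower (Nemf -0.47) and 3 higher, with Zfp598 at 0.32 and Hbs1l at 0.17 having the smallest p-values. Ribosome biogenesis had 6 of 22 genes lower, with Gnl3 at -0.55 and Dkc1 at -0.61 having the smallest p-values, and 0 higher. In the pathway that makes diphthamide on eEF2, 3 of 7 genes were lower, among them Dph3 with -0.45 and Dph7 with -0.41, and 0 were higher. These counts are to be read against 13.5% lower and 13.4% higher over all tested genes.

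Markers of other cell types were measured in the same libraries, with sums given as lowest, median and highest CPM of the Control group and then of the GWI group. Calls among them are to be read against 13.5% lower and 13.4% higher over all tested genes, and counts such as 1 of 7 or 2 of 10 are near that share. Endothelium markers (Pecam1 the most abundant) had 4 of 7 lower, with 47.5, 113 and 186 CPM and 48.6, 76.3 and 104 CPM. Enteric glia markers (Erbb3) had 3 of 8 lower and 1 higher, with 218, 292 and 461 CPM and 417, 458 and 536 CPM. Erbb3 was the higher gene and made up most of this sum, with 139 to 322 CPM in Control and 354 to 476 CPM in GWI mice, while 6 of the 8 glia markers had a negative log2 fold change (median -0.86). Crypt and cycling cell markers (Mki67) had 2 of 10 lower, with 248, 450 and 795 CPM and 319, 407 and 688 CPM, and small intestine markers 2 of 6 tested lower. Fibroblast markers (Col3a1) had 1 of 7 lower, with 269, 543 and 883 CPM and 259, 427 and 737 CPM, and skeletal muscle markers 1 of 6 tested lower, with 18.3, 65.3 and 83.5 CPM and 20.3, 32.1 and 56.7 CPM. Both of these sums overlapped widely between the groups. Adipocyte markers (Fabp4) had 1 of 7 higher, with 36.7, 121 and 276 CPM and 89.95, 216 and 810 CPM. Macrophage (Cd14, 8 of 8 tested), T cell (Lck, 7 of 8 tested) and plasma and B cell markers (Igha, 5 of 8 tested) had 0 called in either direction, with medians of 66.5, 16.04 and 313 CPM in Control and 52.5, 12.3 and 339 CPM in GWI mice. Of 9 exocrine pancreas markers only Cela1, the most abundant, was tested and it was not called, Cpa1 had 0 counts in every mouse, and the sums had medians of 82.9 and 65.2 CPM. The part of these cell types in the levels of the translation factors was not tested, apart from the fit with the smooth muscle and epithelium score and the correlations of Eef1a2 with 3 of the lists.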

How the data were processed

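Libraries with poly(A) selection were made and sequenced as paired-end reads by Azenta, a service company. Reads were trimmed with Trimmomatic 0.36, mapped to GRCm38 with STAR 2.5.2b and counted as unique gene hits with featureCounts, and the deposited values are raw counts per gene without normalization. The annotation release and strand setting are not given in the sources used here. All 17 columns matched a sample. Low counts were removed by filterByExpr and libraries scaled by TMM, and a robust quasi-likelihood model (glmQLFit, then glmQLFTest; edgeR 4.0.16, R 4.3.3) of group alone was fitted to all 17 mice. CPM were computed on TMM-scaled library sizes. Permutation tests used Python 3.11.15 and scipy 1.17.1, and paralog ratios added 0.5 to each count. Positions, lengths and GC content come from GENCODE M21 (GRCm38), to which all 74 symbols matched, and promoters from RefSeq. At this depth counting error is small except for genes with few counts, and no molecular identifiers are mentioned, so 1 molecule may have given several reads.

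Values are given for the 12 tested members with the smallest p-values, the 5 with the highest mean CPM per kilobase, a set of central factors and all called members. For each pathway list up to 2 called genes per direction are named, by p-value, except the mTORC1 and MNK list, where all called genes are named. The rule for the members used gene names only, but it and the lists were set with earlier results of these data known. The alternatives were DESeq2 size factors, upper-quartile factors, library size alone, the DESeq2 1.42.0 Wald test, limma-voom (limma 3.58.1) with quality weights, no robust estimation, no filter, a minimum of 10 counts per mouse, a block for replicate number, a smooth muscle minus epithelium score as a covariate, offsets for GC content and length (mgcv 1.9.3), each of the 17 mice left out in turn, Control replicates 1, 6, 7 and 9 left out together, and other thresholds.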

Additional observations from a re-analysis of the deposited data

Results flagged for a closer look

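Levels of the named members were searched for single mice far from their own group, by the gap to the nearest mouse as a share of the group's range (Dixon's criterion, two-sided, at the 95% level), in 68 groups of values. Chance alone marks about 1 in 20 such groups, and 7 were marked here, 5 of them by Control replicate 9. In that mouse Eif3e had 664 CPM (next highest Control 369 CPM), Eif3m 308 CPM (next 175 CPM), Eif4a2 874 CPM (far above the next), Eif5 585 CPM (next 386 CPM) and Etf1 246 CPM (next 175 CPM). Control replicate 1 had the lowest Eef1g, 340 CPM (next lowest 528 CPM), and GWI replicate 5 the highest Eif1b of its group, 26.0 CPM (next highest 19.5 CPM).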

How the results depend on the processing

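The 18 called members were 14 lower and 4 higher. The number lower was 25 with upper-quartile factors (21.2% of all genes lower), 26 with limma-voom with quality weights (29.5%), 22 with the smooth muscle minus epithelium score as a covariate (13.9%), 8 with GC and length offsets (11.9%) and 21 without Control replicates 1, 6, 7 and 9 (16.4%), against 14 and 13.5%. At an adjusted p under 0.01 there were 5 lower and 2 higher in edgeR. At an unadjusted p under 0.05 with an absolute log2 fold change over 1 there were 0 lower and 0 higher in edgeR, where 31 members had an unadjusted p under 0.05. The shares of all genes at these thresholds are not given here, so these counts cannot be set against them and show no excess or lack. The number higher was 2 with upper-quartile factors (8.58% of all genes higher) and 6 with limma-voom with quality weights (27.6%; Eif4enif1 and Gspt1 were new). The median log2 fold change was -0.24 with upper-quartile factors, in place of -0.14. With 1 mouse left out, the number lower was 11 to 21, the number higher 3 to 4 and the median -0.16 to -0.12. Over all genes 9.21% to 16.3% were lower and 10.4% to 17.9% higher in these fits. Of the 14 lower members 11 were called in all 17 of these fits (not Eif2b3, Eif3e and Eif5), and of the 4 higher members 3 (not Eif4ebp3). In all of the other 12 fits that tested them, Eif1b, Eif3j1, Eif3k, Eef1b2, Eif4g1 and Eif4ebp2 were called, and the sign of each of the 18 was the same. Newly lower were Eef1akmt1, Eef1akmt2, Eef1d, Eif1, Eif2a, Eif2s2, Eif2s3y, Eif3h, Eif4e, Eif4e3 and Eif4g2 with upper-quartile factors, Eef1a1, Eef1a2, Eef1d, Eef1g, Eif1, Eif2b4, Eif2s2, Eif3d, Eif3f, Eif3h, Eif4e3 and Eif5a with limma-voom, Eif2s2 and Eif2s3y with library size alone, Eif2s2 with the DESeq2 Wald test or a minimum of 10 counts, Eif3s6-ps1 without a filter, and Eef1d, Eef1g, Eif1, Eif2a, Eif2s2, Eif3d, Eif3h, Eif4e3 and Eif5a without Control replicates 1, 6, 7 and 9. The cause of these shifts was not tested.

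With the replicate block, 6 members were lower and 3 higher (5.84% and 10.0% of all genes), and the median was -0.12. Same-numbered mice did not deviate together (correlations of -0.51 to 0.11). What the replicate numbers mean is not given in the sources used here. A shared cage, litter or day need not show in these correlations, so a pairing is not excluded. The ratios of Eif4ebp2 to Eif4ebp1, of Eif4g2 to Eif4g1 and of Eif1b to Eif1 passed an adjusted p of 0.05 with and without the doubted Control mice. Depth limits Eif3j2, Gspt2 and Eif5a2, which had under 200 counts in each mouse.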
